A study of Mus musculus with 2 samples.

Results

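The gp130 cytokine system was examined in primary mouse osteoblast cultures through 10 genes, which were the shared receptor subunit Il6st (gp130), the receptor chains Lifr, Osmr, Il6ra, Il11ra1 and Lepr, the ligands Lif, Il6 and Il11, and the feedback inhibitor Socs3. The members were found as all probe sets whose only annotated symbol was 1 of these names, which gave 23 of the 45101 probe sets on the array, for 9 of the 10 genes and of the 18193 genes named on it. Il11ra1 had no probe set with it as the only annotated symbol and was not analysed here. Probe sets with several symbols were left out, so whether any of them reads Il11ra1 was not tested. The cells came from calvariae of newborn mice and were negative for CD11b, a surface protein of myeloid cells. They were kept in ascorbic acid and β-glycerophosphate, with no other treatment, and RNA was taken at day 12 from the later culture and at day 5 from the earlier one. No mouse strain or genotype and no number of pooled animals is given in the labels used here. Each day had 1 array, so no value has a replicate error or a p-value, and every difference compares 2 arrays and not 2 populations of cultures.

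Cytokines of the interleukin-6 family signal through gp130, a membrane protein that most cells carry. A ligand first meets its own receptor chain, gp130 is then drawn in, and bound Janus kinases phosphorylate the receptor tails and the transcription factor STAT3. LIF pairs gp130 with the LIF receptor and oncostatin M pairs it with the oncostatin M receptor, whereas interleukin-6 and interleukin-11 each use a non-signalling alpha chain and a gp130 dimer. The leptin receptor is a structural relative of gp130 that signals as its own dimer. SOCS3 is induced by STAT3, binds phosphorylated gp130 and shuts the signal off. In bone, osteoblast lineage cells respond to these cytokines with altered matrix production and with RANKL, the osteoclast differentiation factor.

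The deposited value is a signal intensity on a linear scale. The 60th percentile served as a floor, 44.8 for the day 12 array and 46.6 for the day 5 array, and a value below it was raised to it before a ratio was taken, so that the ratio is then a bound. A probe set or gene with at least 1 value at or above the floor is called measured. A gene's ratio is that of its brightest probe set, and it was counted as higher or lower where the ratio was at least 2-fold. Of 10479 measured genes, 3.56% passed 2-fold upwards at day 12 and 1.73% passed it downwards, with a median log2 ratio of -0.05. Both arrays had been scaled to 1 target, since their trimmed means were equal.

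The receptor chains of the system differed in direction. Lifr was higher at day 12 in the 2 of its 3 probe sets that were above the floor on both arrays. Its remaining probe set, 1450207_at, was measured through day 12 alone, so its direction was fixed by that filter. Lepr was higher in the 3 of its 4 probe sets that were measured. Il6st, Osmr and Socs3 had a lower signal at day 12 in each of their measured probe sets. Of 6 measured members, Lifr and Lepr (2 genes) passed 2-fold upwards, 0 passed it downwards, and 4 lay between. Among the 6, 3 had a log2 ratio above 0 and 3 below. Lif, among those above, was measured through day 12 alone, so its sign was fixed by that filter. The median of the 6 was -0.06, in the gap between the positive and the negative ratios. The set of measured members changes with the floor, and their median changes with it. With the floor at the 50th percentile Il6ra and Il11 were also measured, and the median was 0.12. With the floor at the 75th percentile Lif was not measured, and the median was -0.49. The other 3 members with probe sets, Il6, Il11 and Il6ra, lay below the floor on both arrays. Of the 23 probe sets, 12 were above the floor on both arrays, 2 on the day 12 array only and 9 on neither.

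**Figure D1:**
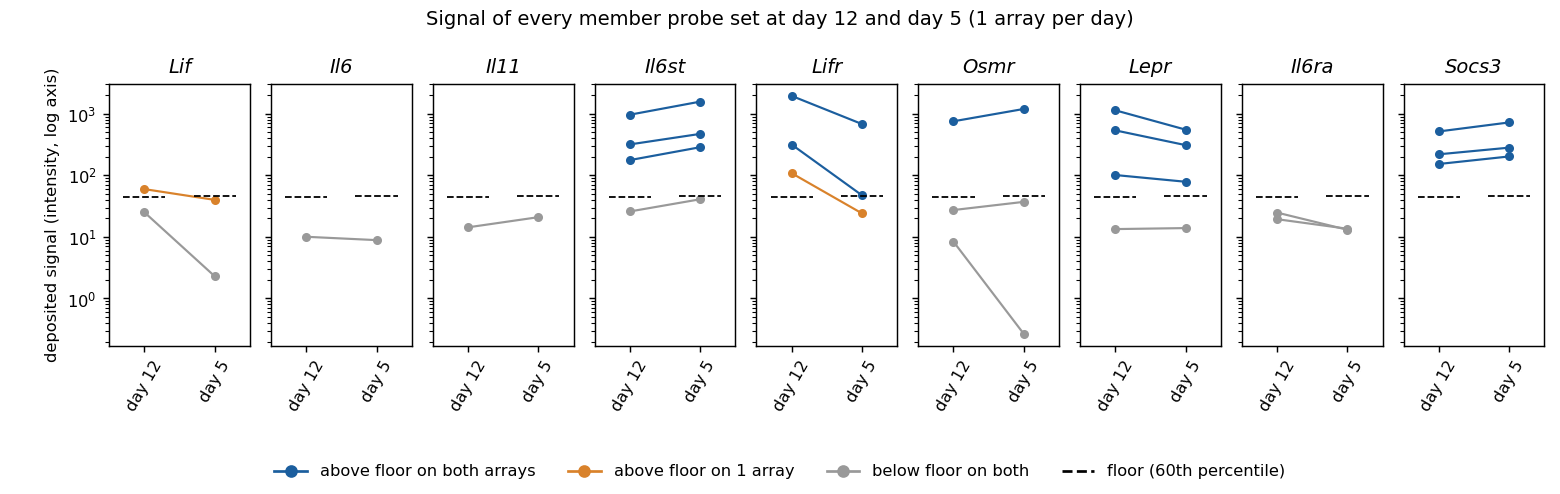
Deposited signal (intensity, log axis) of all 23 member probe sets, with a panel for each gene, day 12 left and day 5 right; a line joins the values of 1 probe set and dashes mark the floors of 44.8 at day 12 and 46.6 at day 5. The lines of Lifr run down to day 5, those of Il6st and Socs3 run up to it, and those of Il6, Il11 and Il6ra stay under the floor. Heights of different probe sets are not comparable with each other.

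Lifr encodes the receptor chain that binds LIF and transmits its signal with gp130. Its brightest probe set, 1454984_at, had a signal of 1951 at day 12, against 680.4 at day 5, which is 2.87-fold higher. The probe set 1425107_a_at had 316 at day 12 and 47.4 at day 5, 6.67-fold higher, with the day 5 value just above the floor. The third, 1450207_at, had 108 at day 12 and 24.1 at day 5, at least 2.33-fold higher because the day 5 value was under the floor. Day 12 was thus the higher array for the 2 probe sets measured on both days, and each was past 2-fold. The third was measured through the day 12 array alone, so its direction was fixed by that filter. The sizes differed, with log2 ratios of 1.52 and 2.74 for the 2 whose values were both above the floor. Only 1.88% of measured genes had a log2 ratio as high as the 1.52 of the brightest one. In bulk RNA, more cells that carry Lifr and more Lifr RNA per cell cannot be told apart, and the same holds for every member.

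Lepr encodes the leptin receptor, which is made as several splice forms and, in the mouse, also marks stromal cells of the marrow. Its brightest probe set, 1456156_at, had a signal of 1139 at day 12, against 552 at day 5, or 2.06-fold higher. The probe set 1425644_at had 537 at day 12 and 309 at day 5, which is 1.74-fold. A signal of 101 at day 12, against 78.6 at day 5, made 1425875_a_at 1.29-fold higher. All 3 were thus higher at day 12, but only the brightest passed 2-fold. The fourth, 1425873_a_at, was below the floor, with 13.4 at day 12 and 13.9 at day 5. The log2 ratios of the 3 measured probe sets spanned 0.68, wider than or as wide as in 86.7% of the 1440 genes with 3 or more probe sets measured on both days, where the median span was 0.33. Which splice form each probe set reads was not tested. Among the 4 listed marker genes of reticular stromal cells, which carry the leptin receptor in marrow, 0 passed 2-fold, and their summed signal was 4188 at day 12 and 3765 at day 5. The median log2 ratio of those 4 was -0.42, with 1 above 0 (Cxcl12, a chemokine, at 0.35) and 3 below.

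Il6st, the signal-transducing subunit used by LIF, oncostatin M, interleukin-6 and interleukin-11 alike, was lower at day 12 by less than 2-fold. Its brightest probe set, 1452843_at, had a signal of 965 at day 12, against 1573 at day 5, which is 1.63-fold lower. The probe set 1437303_at had 318 at day 12 and 471 at day 5, 1.48-fold lower, and 1460295_s_at had 177 at day 12 and 286 at day 5, 1.62-fold lower. The fourth, 1421239_at, lay below the floor, with 25.9 at day 12 and 40.9 at day 5. All 3 measured probe sets were therefore lower at day 12, and by nearly the same factor. Their log2 ratios of -0.71, -0.57 and -0.70 spanned 0.14, and 12.4% of genes with 3 or more such probe sets had a span that small or smaller. In 51.1% of those genes the probe sets were all on 1 side of 0. A log2 ratio as low as -0.71 was found in 4.69% of measured genes.

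Osmr, the receptor chain for oncostatin M, also had a lower signal at day 12. Its one measured probe set, 1418674_at, had a signal of 754 at day 12, against 1196 at day 5, a log2 ratio of -0.67 or 1.59-fold lower. Its remaining probe sets were below the floor, at 27.3 at day 12 and 37.1 at day 5 for 1418675_at, and at 8.39 at day 12 and 0.266 at day 5 for 1459217_at. Osmr therefore rests on 1 probe set, and 5.45% of measured genes had a log2 ratio as low.

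The genes Osmr and Lifr lie next to each other on chromosome 15, with no other protein-coding gene between them in the RefSeq table used (GRCm38.p6), and their ratios had opposite signs. Within each array any overall scaling factor cancels from the ratio of 2 probe sets. By the brightest probe sets, the ratio of Lifr to Osmr signal at day 12 was 4.55 times that at day 5, a difference of 2.19 between their log2 ratios. The other pair measured on both days gave a difference of 3.40. For Lifr and Il6st the difference was 2.23 by the brightest probe sets, and it lay between 2.09 and 3.44 over all 6 pairs. For Lepr and Il6st it lay between 0.93 and 1.75 over 9 pairs. The pairs share probe sets and both arrays, so they are not independent measurements. For comparison, the log2 ratios of the 2 brightest probe sets of 1 gene differed by a median of 0.16 over 4020 genes, a measure of probe error that leaves out any difference between cultures.

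**Figure D2:**
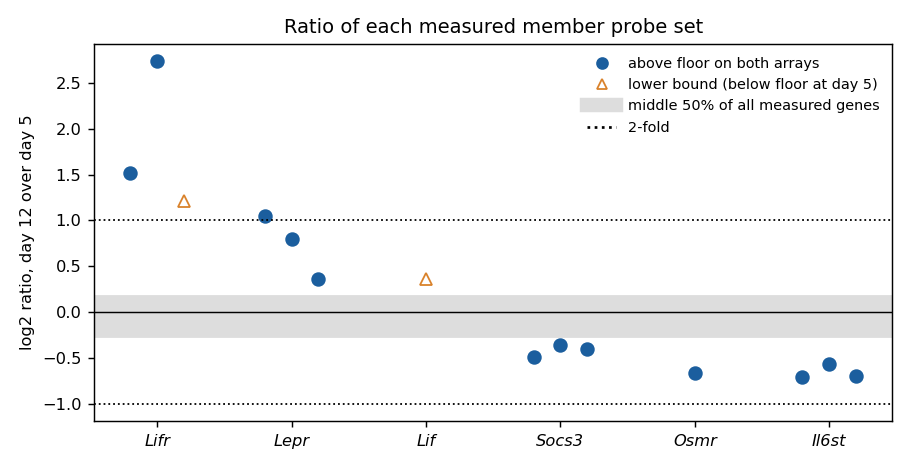
Log2 ratio of day 12 over day 5 for the 14 measured member probe sets of 6 genes, with filled points above the floor on both arrays and open triangles for lower bounds; the grey band is the middle 50% of all measured genes (-0.27 to 0.17) and dotted lines mark 2-fold. Every point of Lifr is above the upper dotted line, 1 of 3 Lepr points is, and the points of Socs3, Osmr and Il6st lie between the band and the lower dotted line.

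Il6ra, the alpha chain that binds interleukin-6, was below the floor on both arrays. Its 2 probe sets had signals of 24.8 and 19.4 at day 12, and of 13.1 and 13.6 at day 5. No ratio is given for values below the floor, which does not show that the RNA was absent.

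The ligands were dim. Lif, which encodes leukaemia inhibitory factor, read 59.7 at day 12 and 39.9 at day 5 in its brighter probe set, 1421207_at, a difference of at least 1.28-fold and a log2 bound of 0.36. The second Lif probe set, 1450160_at, had 25.1 at day 12 and 2.29 at day 5, both under the floor. Lif was thus above the floor at day 12 only, and by a small margin. Il6, encoding interleukin-6, had signals of 10.0 at day 12 and 8.87 at day 5. Il11, encoding interleukin-11, had 14.3 at day 12 and 20.9 at day 5. Both of these genes have a single probe set here, and neither was measured on either day.

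Socs3, the feedback inhibitor and a direct STAT3 target gene, had a slightly lower signal at day 12. Its brightest probe set, 1455899_x_at, had a signal of 516 at day 12, against 723 at day 5, a log2 ratio of -0.49. The probe set 1456212_x_at had 219.6 at day 12 and 281.5 at day 5, and 1416576_at had 153 at day 12 and 202.6 at day 5, which are 1.28-fold and 1.33-fold lower. All 3 were lower at day 12, within a span of 0.13 on the log2 scale. Names ending in _x_at mark probes that may bind other transcripts, and the one probe set without that mark, 1416576_at, gave a log2 ratio of -0.41. Ratios as low as -0.49 were found in 11.2% of measured genes, so a difference of this size was common on these arrays.

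**Figure D3:**
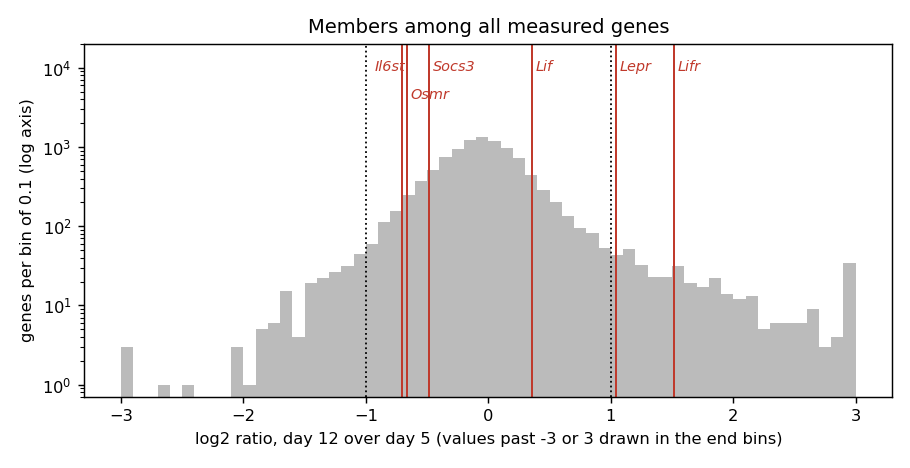
Histogram of the log2 ratio of day 12 over day 5 for all 10479 measured genes (number of genes per bin on a log axis), with red lines at the 6 measured members and dotted lines at 2-fold. Lepr and Lifr lie in the upper tail, at 1.04 and 1.52, and Socs3, Osmr and Il6st on the lower flank of the main body, between -0.49 and -0.71.

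The promoters of the 5 members measured on both days are shown, so that those higher at day 12 (Lifr and Lepr) can be read beside those with a lower signal (Il6st, Osmr and Socs3). The sequences are from RefSeq (GRCm38.p6) and run over the 250 bases before an annotated start, 5′ to 3′ on the gene's strand. A pair of motifs was searched on both strands, with matches in capitals: TTCNNNGAA, the core that STAT factors bind, and ACGTG or GCGTG, the core that hypoxia-inducible factors bind, whose reverse complements are CACGT and CACGC.
Lifr, chr15:7129322-7129571, plus strand: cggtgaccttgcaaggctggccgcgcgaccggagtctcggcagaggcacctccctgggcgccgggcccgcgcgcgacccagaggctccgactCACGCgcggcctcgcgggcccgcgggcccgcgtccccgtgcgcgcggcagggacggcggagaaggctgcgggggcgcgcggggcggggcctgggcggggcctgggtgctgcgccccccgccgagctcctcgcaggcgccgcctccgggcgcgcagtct
Lepr, chr4:101717157-101717406, plus strand: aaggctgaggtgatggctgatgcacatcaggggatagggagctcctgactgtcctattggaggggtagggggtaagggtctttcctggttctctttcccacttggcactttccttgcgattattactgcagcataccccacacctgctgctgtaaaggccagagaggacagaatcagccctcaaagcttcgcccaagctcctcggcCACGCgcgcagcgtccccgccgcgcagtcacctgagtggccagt
Il6st, chr13:112463820-112464069, plus strand: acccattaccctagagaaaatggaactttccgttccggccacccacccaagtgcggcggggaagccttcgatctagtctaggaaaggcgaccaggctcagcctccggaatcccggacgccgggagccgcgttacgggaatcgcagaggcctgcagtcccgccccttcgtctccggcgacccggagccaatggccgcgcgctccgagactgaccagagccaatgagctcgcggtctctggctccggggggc
Osmr, chr15:6874314-6874563, minus strand: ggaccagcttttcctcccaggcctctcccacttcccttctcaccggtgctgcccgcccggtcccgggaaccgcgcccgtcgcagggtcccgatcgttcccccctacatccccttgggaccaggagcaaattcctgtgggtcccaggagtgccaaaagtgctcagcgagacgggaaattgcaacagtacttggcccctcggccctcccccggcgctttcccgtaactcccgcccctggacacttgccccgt
Socs3, chr11:117969367-117969616, minus strand: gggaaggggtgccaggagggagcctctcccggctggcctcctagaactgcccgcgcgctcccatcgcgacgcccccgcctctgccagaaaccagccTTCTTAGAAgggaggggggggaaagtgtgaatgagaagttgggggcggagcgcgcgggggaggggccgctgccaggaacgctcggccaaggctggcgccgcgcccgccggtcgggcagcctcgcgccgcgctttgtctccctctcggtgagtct
Socs3 held 1 match to the STAT core, TTCTTAGAA, with its first base 154 bases before the start. Lifr held 1 match to the hypoxia core, CACGC, 158 bases before the first of its 2 annotated starts. Lepr also held 1, CACGC, 44 bases before the first of its 2 starts, the one shown, and Il6st and Osmr held neither motif in these windows. The windows before the second starts of Lifr and Lepr, which are not shown, held neither motif. Of the 14 promoters listed for the 10 genes, 1 (7.14%) held the STAT core, against 7.02% of all 32851 promoter windows of this length. The hypoxia core was in 4 of the 14 (28.6%), against 38.6% of all windows. Both shares are thus near or below the background, and a match is a string of letters, not a bound site.

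The other genes of the pathway were taken from 6 lists of 78 genes, of which 59 were measured, 4 were higher by 2-fold or more at day 12 and 0 were lower by as much. Their median log2 ratio was -0.05, the same as that of all measured genes. Of all measured genes, 3.56% passed 2-fold upwards at day 12 and 1.73% downwards. All 4 higher genes belong to the list of response genes.

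Among the other ligands, 2 of the 6 with a probe set were measured, 0 passed 2-fold and the median log2 ratio was -0.24. Ctf1, encoding cardiotrophin-1, a LIF receptor ligand that bone cells make, read 105 at day 12 and 183 at day 5, 1.74-fold lower. Ebi3, a subunit of interleukin-27, was above the floor at day 12 only, with 57.8 at day 12 and 13.0 at day 5. It was at least 1.24-fold higher with that floor, but passed 2-fold with the floor at the 50th percentile (at least 2.94-fold) and with a pseudocount of 16 (2.55-fold). The oncostatin M gene Osm was below the floor, with 9.37 at day 12 and 8.96 at day 5. Of the 6 other receptor chains with a probe set, 0 were measured, among them Cntfr, the ciliary neurotrophic factor receptor, at 19.4 at day 12 and 35.2 at day 5. Osm and Cntfr were picked after their values were seen.

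Of 12 measured kinases, STATs and adaptors, which carry the signal inside the cell, 0 passed 2-fold, and their median log2 ratio was -0.09. At a threshold of 1.5-fold, 2 were higher (Gab2 and Jak2) and 1 lower (Stat5a). Gab2, a docking adaptor, read 122 at day 12 and 68.6 at day 5, a log2 ratio of 0.83. Jak2, the Janus kinase of the leptin receptor and of gp130, had 423 at day 12 and 275 at day 5, with log2 ratios of 0.62 and 0.74 in its 2 probe sets. Jak1, the kinase gp130 depends on most, had 1153 at day 12 and 1537 at day 5 (log2 ratio -0.41, between -0.49 and -0.24 over 3 probe sets). Stat5a had a log2 ratio of -0.61. Stat3 itself, picked after its values were seen, had 1092 at day 12 and 1106 at day 5, with log2 ratios of -0.02 and -0.04 in its 2 probe sets. Jak1 and Jak2 therefore had opposite signs, and Stat3 was nearly level on these 2 arrays.

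Besides Socs3, all 14 listed inhibitors of the pathway were measured and 0 passed 2-fold. Of them, 10 had a log2 ratio below 0 and 4 above, with a median of -0.19, where 56.4% of all measured genes were below 0. Ptpn6, among the 4 above, was measured through day 12 alone. Its sign was thus fixed by the floor, and it is named for that reason. Socs5, a relative of Socs3, read 380 at day 12 and 671 at day 5 and was the furthest down, 1.77-fold lower, and its other probe set gave -0.62 on the log2 scale. Ptpn1, a tyrosine phosphatase that acts on Jak2, had a log2 ratio of -0.71 in its brightest probe set and -0.27 in the other. Pias3, an inhibitor of STAT3, had -0.52 and -0.64. Ptpn2, a related phosphatase of nuclear STATs, went the other way and read 1735 at day 12 and 1219 at day 5, a log2 ratio of 0.51.

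Of 25 measured response genes of gp130 and STAT3, 4 were past 2-fold on the higher side at day 12 and 0 on the lower, with 15 above 0 and 10 below and a median log2 ratio of 0.29. Over all measured genes 3.56% passed on the higher side and 1.73% on the lower, and 43.6% were above 0. Fgl2, among the 4, and Saa3 were measured through day 12 alone, and Hp through day 5 alone. Their signs were thus fixed by the floor, and Saa3 and Hp are named for that reason. With the floor at the 75th percentile 2 of the 4, Klf4 and Ier3, still passed, and Bcl6 and Fgl2 did not. Klf4, a transcription factor, read 4234 at day 12 and 1063 at day 5, 3.98-fold higher, and its other probe set gave 2.28 on the log2 scale. Ier3, an immediate early gene of cell survival, had 2792 at day 12 and 814 at day 5, 3.43-fold higher. Bcl6, a transcriptional repressor, had 348 at day 12 and 136 at day 5, 2.55-fold higher. Fgl2, a fibrinogen-like protein that macrophages also make, had 184 at day 12 and 27.0 at day 5, at least 3.94-fold higher. As background, all 4 are known to answer to many stimuli. Lbp, the lipopolysaccharide-binding protein of the acute phase, had a log2 ratio of -0.45, and Junb of 0.75. Tnfsf11, the RANKL gene, had 44.8 at day 12 and 73.2 at day 5, close to the floor. Lbp, Junb and Tnfsf11 were picked after their values were seen.

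Of 6 genes of receptor shedding and trafficking, all measured, 0 passed 2-fold and the median log2 ratio was -0.05. Sort1, the sortilin gene, had the largest difference, with a log2 ratio of -0.49. Adam17, a protease that can release receptor ectodomains, had 0.18, and Leprotl1, a regulator of leptin receptor trafficking, had 0.08. Furin, a proprotein convertase, had -0.09.

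**Figure D4:**
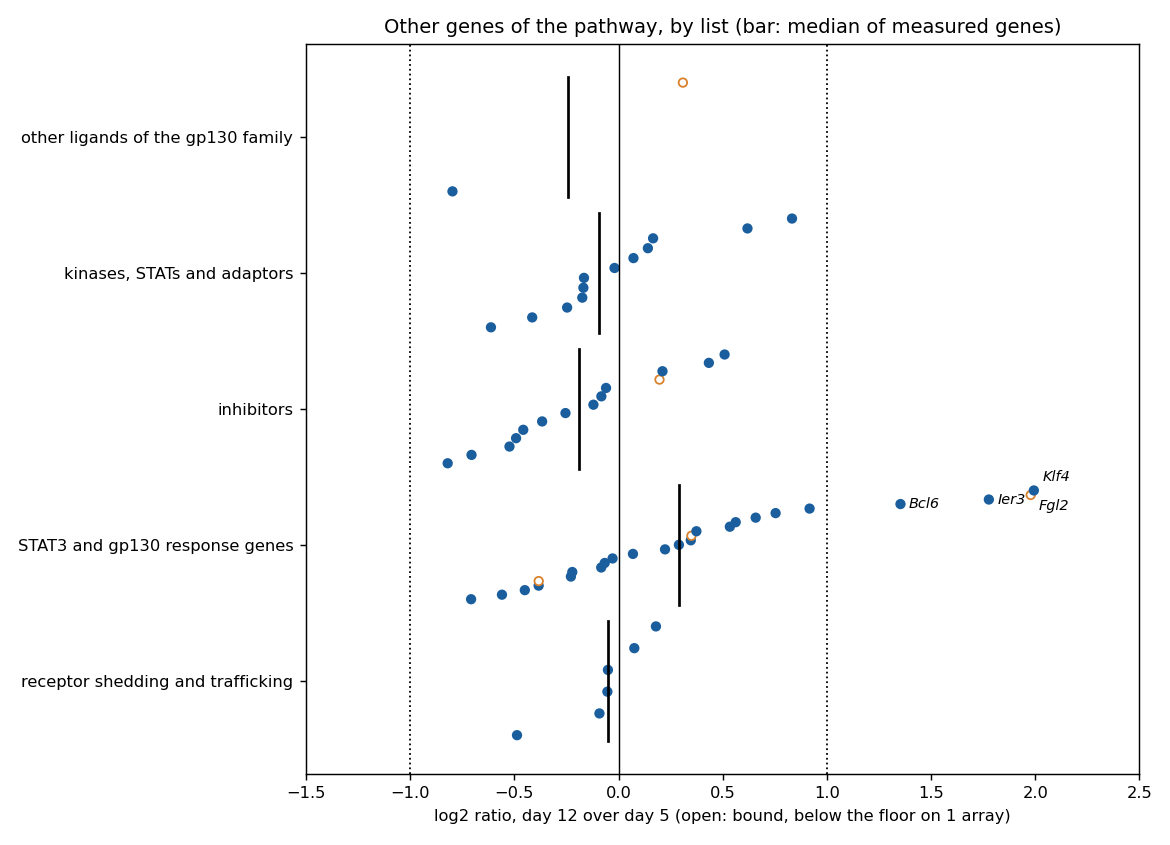
Log2 ratio of day 12 over day 5 for the 59 measured genes of the pathway lists, with a row for each list that has measured genes; filled points are above the floor on both arrays, open points are bounds, bars are list medians and dotted lines mark 2-fold. Points past the dotted lines are the 4 response genes Klf4, Fgl2, Ier3 and Bcl6, all on the higher side.

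Cell type markers also differed between the arrays. For comparison, 3.56% of all measured genes passed 2-fold upwards at day 12 and 1.73% downwards. Of 8 listed osteoblast markers, 5 had a probe set with no other symbol, and Runx2, Bglap and Spp1 had none. All 5 were above the floor on both days, and 4 passed 2-fold on the higher side at day 12. The summed signal of the 5 was 28231 at day 12 and 9151 at day 5. Of 5 osteocyte markers, Dmp1 was 20.2-fold higher, and Phex and Mepe were measured through the day 12 array alone, with day 5 values of 35.6 and 1.52 under the floor, so their direction was fixed by that filter. The remaining osteocyte markers, Sost and Fgf23, were below the floor on both arrays. Of 9 myeloid markers, 8 were measured and all 8 were at least 2-fold higher, with summed signals of 10601 at day 12 and 4346 at day 5. Itgam, which encodes CD11b itself, was below the floor on both arrays, at 35.4 at day 12 and 14.6 at day 5. Of 7 chondrocyte markers, 4 were at least 2-fold lower and 0 higher, with summed signals of 11934.5 at day 12 and 29221 at day 5. Matn1, among those 4, was measured through the day 5 array alone, with 11.5 at day 12 and 1507 at day 5. Its direction was thus fixed by the filter. Of 4 adipocyte markers with a probe set, all 4 were measured and 0 passed 2-fold, with sums of 277 at day 12 and 453 at day 5. Adipoq, with 17.5 at day 12 and 75.1 at day 5, was likewise measured through day 5 alone. Of 6 endothelial markers 1 was measured, Egfl7, and of 3 lymphocyte markers with a probe set 0 were. Osteoblast and myeloid markers and Dmp1 thus had ratios of the same sign as Lifr and Lepr. Chondrocyte markers had the sign of Il6st, Osmr and Socs3, as did adipocyte markers, though none of the adipocyte markers passed 2-fold. Of the 4 reticular stromal markers described with Lepr, 3 had a log2 ratio below 0, opposite to Lepr. The part of these cell types in the differences of the members was not tested.

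The genes most like a member were sought by distance between log2 signals on the 2 arrays, among 9809 other genes above the floor on both. Nearest to Il6st were Oaf, Tnfrsf12a, which encodes the TWEAK receptor, and Maged2, at distances of 0.03, 0.05 and 0.06. Nearest to Lifr were Fzd5, a Wnt receptor gene, Hpgd, which encodes the enzyme that inactivates prostaglandins, and Susd5, at distances of 0.22, 0.22 and 0.24. Likeness over 2 arrays is only a description, since it sets levels of different probe sets side by side.

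The members measured on both days kept their signs under every normalisation and floor. Lif was measured through day 12 alone with the floor at the 60th percentile, so its sign there was fixed by that filter. With the floor at the 50th percentile both Lif values were above the floor, and its log2 ratio was 0.58. The log2 ratio of Lifr lay between 1.498 and 1.566 over the alternatives, that of Il6st between -0.72 and -0.66 and that of Osmr between -0.67 and -0.62. Lepr is the call that depends on the choice, since with the median of its probe sets the log2 ratio was 0.80, under 2-fold.

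**Figure D5:**
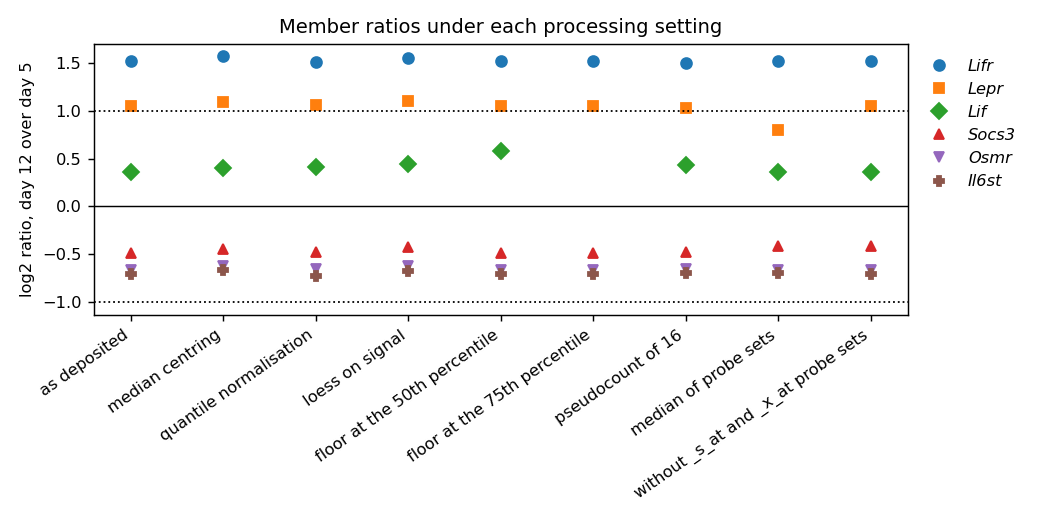
Log2 ratio of day 12 over day 5 for the 6 measured members as deposited and under 8 other processing settings, with dotted lines at 2-fold. Lifr stays near 1.5, Lepr drops under the 2-fold line with the median of probe sets, Lif has no value with the floor at the 75th percentile, and Socs3, Osmr and Il6st stay between 0 and the lower dotted line.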

How the data were processed

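Total RNA from 2 cultures, 1 at day 12 and 1 at day 5, was turned into biotinylated cRNA for Affymetrix arrays, 1 per culture, per the labels' protocols. GCOS 1.4 and MAS5 made the values, per the submitters' processing notes. The authors deposited 1 signal intensity per probe set on a linear scale, and the mean after trimming 2% at each end was equal on both arrays. Such scaling cannot show a change in total RNA. Detection calls were not used here, and the build is not given in the sources used here.

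Of 45037 probe sets other than 64 controls, 34945 had 1 gene symbol, 932 several and 9160 none, and only those with 1 were named. Symbols were updated through the Entrez number for 34741 (GRCm38.p6). For each of 18193 genes the probe set of highest mean log2 signal was used, with a floor at the 60th percentile. Because each day has 1 array, no test was made. The members, the lists and the settings were chosen with earlier results of these data known. Named genes are all members, the list genes past 2-fold, up to 4 with the largest absolute log2 ratio per list and the 3 genes nearest to Il6st and to Lifr, and exceptions are stated. The number of arrays limits the precision. The code was tested on simulated data. Alternatives changed the normalisation, floor, pseudocount (16), probe sets and threshold. Tools were matplotlib 3.10.9 for figures, statsmodels 0.14.6 for loess, and pandas 2.3.3, scipy 1.17.1 and numpy 2.4.6 in Python 3.11.15.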

Additional observations from a re-analysis of the deposited data

How the results depend on the processing

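Over the alternatives run, every member measured on both days kept the sign of its log2 ratio. The sign of Lif was fixed by the filter except with the floor at the 50th percentile. The difference between the log2 ratios of Lifr and Osmr lay between 2.15 and 2.19. With the median of probe sets, 1 member was at least 2-fold higher in place of 2, since Lepr had a log2 ratio of 0.80. At a 3-fold threshold 0 members were counted as higher, and at 1.5-fold 2 were counted as lower. With the floor at the 50th percentile Lif was above it on both arrays, with a log2 ratio of 0.58. The median of the members measured with that floor, Il6ra and Il11 among them, was 0.12. With the floor at the 75th percentile Lif was not measured and the median of the measured members was -0.49. With that floor 2 pathway genes were at least 2-fold higher in place of 4. At 1.5-fold, 9 pathway genes were higher and 5 lower. Over all genes, 373 were higher and 181 lower as deposited, against 760 and 807 at 1.5-fold, 175 and 36 at 3-fold, 223 and 74 with the floor at the 75th percentile, and 510 and 297 with the floor at the 50th. A floor from olfactory receptor probe sets was not run, because 44 were annotated and at least 50 had been required. No paired analysis was possible because each day has 1 array. Signal near the floor limits Lif and the dimmest Lifr probe set.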
